A study of Rattus norvegicus and Mus musculus with 18 samples.

Results

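The cytosolic ribosomal protein genes of mouse were followed in healing skin, where wound epidermis was compared with the wound dermis beneath it. Members were the protein-coding genes whose symbol begins with Rpl or Rps and a digit, together with Rplp0, Rplp1, Rplp2 and Rpsa. Genes of the Rps6k kinase family and symbols with a hyphen were left out. This gave 86 genes among the 49548 rows of the mouse table, 34 named for the small subunit and 52 for the large subunit. Names alone decided membership, although the set was chosen with earlier results of these data known.

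Ribosomal proteins fold onto ribosomal RNA to build the small subunit, which reads the messenger RNA, and the large subunit, which joins amino acids into protein. Their messenger RNAs typically begin with a 5′ terminal oligopyrimidine (TOP) tract, a C followed by a run of C and T, through which mTORC1 signalling controls their translation. In skin, basal keratinocytes make the proteins that renew the epidermis, and mouse mutants of several ribosomal protein genes have altered skin or coat colour.

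Wounded skin of adult mice was sampled 1 day after the scab came off, and total RNA was sequenced by SMART-seq2, which copies polyadenylated RNA into amplified full-length cDNA. There were 3 wound dermis and 3 wound epidermis libraries. Strain, genotype and sex are not given in the labels used here, nor whether each library is its own animal. A p-value here therefore reflects only how these libraries spread. Rat libraries of the same study were not used here, since they are listed apart from mouse and their genes carry other identifiers.

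Levels are TPM, a gene's share of all transcripts of a library after division by transcript length, scaled to a total of 1000000. TPM holds no read totals, so the depth of the libraries is unknown and no counting error can be given. Because TPM is a share, abundant genes that differ between the tissues shift all others. The members were therefore also measured after Actb, the gene of cytoplasmic beta-actin, and 44 collagen rows had been removed and each library had been rescaled to 1000000, here called the reduced total. Together these rows took 22.9%, 15.5% and 18.2% of dermis replicates 1, 2 and 3, and 3.60%, 3.86% and 4.57% of the epidermis replicates. Actb alone stood at 155846, 109307 and 113414 TPM in dermis and 35665, 38420 and 45349 in epidermis. The collagen genes Col1a1, Col1a2 and Col3a1 were between 6399 and 38002 TPM in every dermis library and at most 51.5 TPM in every epidermis library.

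Marker genes matched the tissue labels, with 1 dermis library apart. All 10 fibroblast markers were called lower in epidermis, and their summed level was 69320, 44560 and 69384 TPM in dermis against 68.0, 34.0 and 137 in epidermis. Of these markers Lum, Mfap4 and Pdgfra were under 1 TPM in every epidermis library. They entered the test through dermis alone, so their calls could hardly have gone the other way. Of 12 keratinocyte markers 11 were called higher in epidermis, where they summed to 57136, 71594 and 48298 TPM. In dermis replicates 1, 2 and 3 they summed to 2727, 15218 and 527 TPM. Dermis replicate 2 thus had the highest keratinocyte marker level of the dermis libraries. Relative to the mean of the epidermis libraries, its median over the 12 markers was 27.2%, while replicate 1 had 7.97% and replicate 3 had 1.31%. Macrophage and leukocyte markers summed to between 1656 and 3099 TPM in dermis and between 76.7 and 98.0 in epidermis. Endothelial markers reached 225 to 353 TPM in dermis and at most 9.57 in epidermis, with Cldn5 at 0 in 2 epidermis libraries. Erythroid markers reached 19.9 to 73.6 TPM in dermis and at most 4.59 in epidermis. In bulk tissue, fewer cells of a type and less RNA per cell cannot be told apart.

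The start of the messenger RNA is shown for the 2 members whose TOP tract began at the first annotated base and whose fold change was among the 5 highest, and for the 2 members called lower in epidermis. Each line gives the first 25 bases of the gene's annotated transcript in GENCODE on mm10, 5′ to 3′, with a pyrimidine run that starts with C at the first base in capitals. Rps24 lies at chr14:24487125-24496959 on the plus strand, and Rps2 at chr17:24718116-24721929 on the plus strand.
Rps24: CTCTTTTCCTCCTCTCCagctccgg
Rps2: CTTCTTCTTCTTCgggagaacacgt
Rpl39l: ggatttccggtggtcgccattcttt
Rps27l: gcctctatcccggaagttgctgagg
A C at the first base followed by at least 4 pyrimidines was found in 12 of the 86 members (14.0%), against 459 of 21655 protein-coding genes (2.1%). The same tract anywhere in the first 25 bases was found in 44 members (51.2%) and in 6245 of all protein-coding genes (28.8%). Annotated starts are often some bases away from the start that cells use, so a missing tract here says only that the annotated first base is not one.

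Ribosomal protein transcripts together took a larger share of the epidermis libraries than of the dermis libraries. Their summed level was 24596, 34265 and 28438 TPM in dermis replicates 1, 2 and 3 and 43294, 46789 and 50969 TPM in epidermis replicates 1, 2 and 3. The lowest epidermis library thus lay above the highest dermis library, dermis replicate 2. The means were 29100 ± 4868 TPM in dermis and 47018 ± 3843 in epidermis (SD, n = 3 each), a ratio of 1.62. As a share of all transcripts this was 2.46% to 3.43% in dermis and 4.33% to 5.10% in epidermis.

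On the reduced total the groups still did not overlap, but the gap narrowed. The sums were 31909, 40546 and 34755 per 1000000 transcripts in dermis and 44909, 48667 and 53411 in epidermis, a ratio of 1.37. Rps25 alone, the most abundant member, supplied 3209 to 5303 TPM in dermis and 5980 to 7752 in epidermis, and without it the ratio on the deposited TPM was 1.61. Adding the levels of 957 pseudogene rows whose transcripts match a member best by sequence raised the sums and left a ratio of 1.63. Among the dermis libraries the sums ran opposite to the removed share, from replicate 1 with the lowest sum to replicate 2 with the highest. Replicate 2 also had the highest keratinocyte marker level, while replicate 1 had more of it than replicate 3. The part of either in the sums was not tested.

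**Figure D1:**
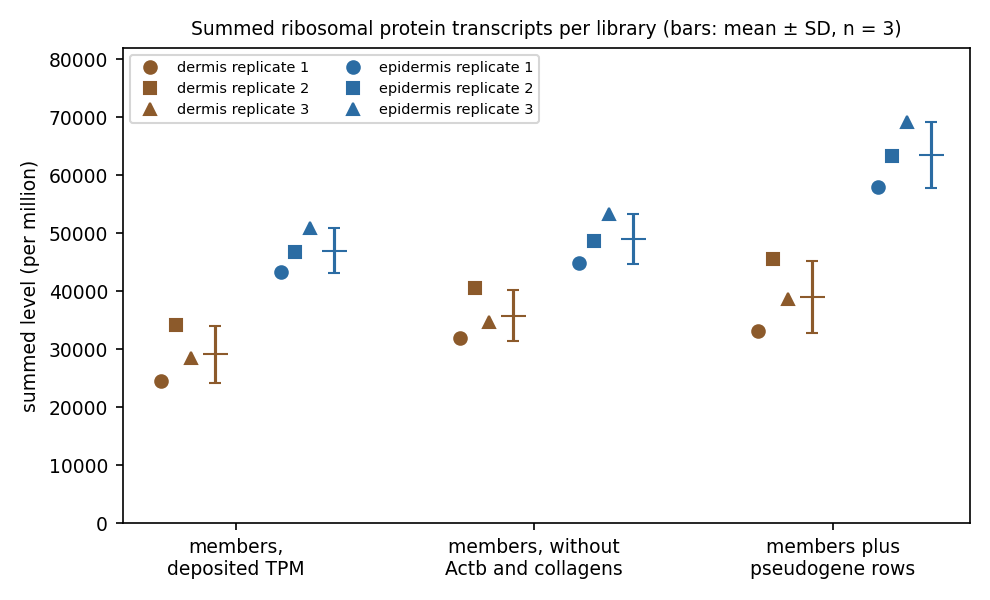
Summed level of the 86 ribosomal protein genes in each library (vertical axis, per 1000000 transcripts) on the deposited TPM, on the total without Actb and collagens, and with pseudogene rows added. Points are libraries and bars the mean ± SD (n = 3), and every epidermis library lies above every dermis library in all 3 measures, with ratios of 1.62, 1.37 and 1.63.

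Gene by gene, most members had a positive difference, while fewer passed the test. Values were compared as log2(TPM + 1) with limma over 15982 genes that reached 1 TPM in at least 3 libraries, a scale that understates the change of low genes, and a gene was called at a Benjamini-Hochberg adjusted p under 0.05. Of 84 members tested, 80 had a higher mean in epidermis and 47 were called higher. Over all tested genes 17.0% were called higher. Called lower were 2 members, Rpl39l and Rps27l, against 39.3% of all tested genes. The median log2 fold change of the members was 0.70, with the middle of the distribution between 0.57 and 0.82, beside a median of -0.42 over all tested genes. At an unadjusted p under 0.05, 63 members were higher and 2 lower. All 3 epidermis libraries lay above all 3 dermis libraries for 69 members, beside 20.8% of all tested genes.

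On the reduced total the same test called 17 members higher, beside 13.9% of the 16343 genes tested, and 2 lower, beside 46.9%. The median log2 fold change was 0.46 for members and -0.63 for all genes. All 17 were among the 47 called on the deposited TPM. Removing Actb alone left 31 members higher and removing the collagens alone left 39. Ribosomal protein genes are abundant, with 71 members at a mean of 100 TPM or more. Among the 1369 other genes at that level, 31.9% were called higher and 28.0% lower on the deposited TPM, with a median of 0.05. Among 1356 such genes on the reduced total, 28.2% were called higher and 35.5% lower, with a median of -0.17.

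The calls depended on single dermis libraries. Without dermis replicate 1 the members called higher numbered 11, without dermis replicate 3 they numbered 10, and without dermis replicate 2, the one with the highest keratinocyte marker level, they numbered 50. Leaving out epidermis replicates 1, 2 and 3 gave 32, 29 and 21. The median moved only between 0.64 and 0.83. On the reduced total the count fell to 1 without dermis replicate 1 and to 1 without dermis replicate 3. It was 18 without dermis replicate 2, and 14, 6 and 7 without epidermis replicates 1, 2 and 3. Called with each library left out in turn were Rpl13, Rplp2, Rps2, Rps6, Rps10, Rps18, Rps24 and Rps26 on the deposited TPM, and Rps2 and Rps27l on the reduced total. Rpl39l was tested in only 3 of these 6 fits, because 3 dermis libraries are all that bring it to 1 TPM, and it was called in those 3.

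**Figure D2:**
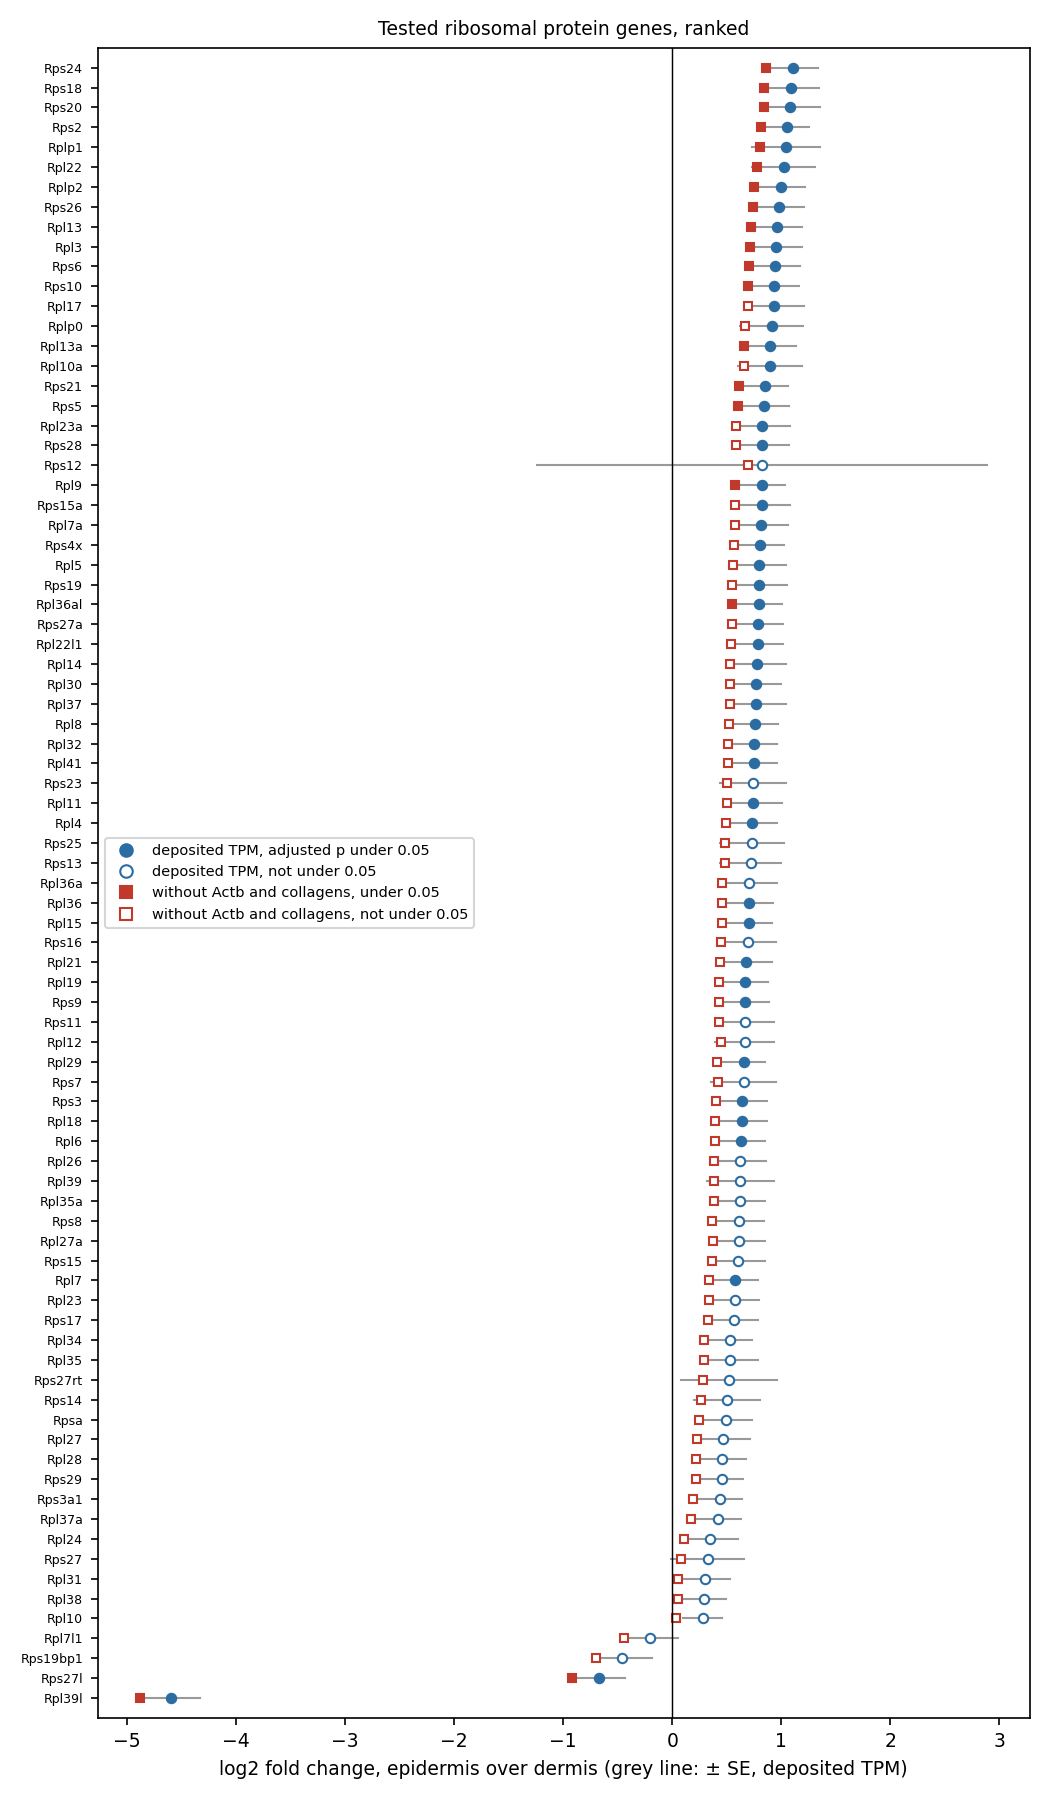
Log2 fold change (epidermis over dermis, horizontal axis) of the tested members, all but 1 of the 84 drawn, ranked on the deposited TPM, with circles for the deposited TPM (grey line, ± SE) and squares for the total without Actb and collagens; filled symbols have an adjusted p under 0.05. Rps24 leads at 1.11 and Rpl39l stands alone at -4.59, and the squares sit to the left of the circles.

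**Figure D3:**
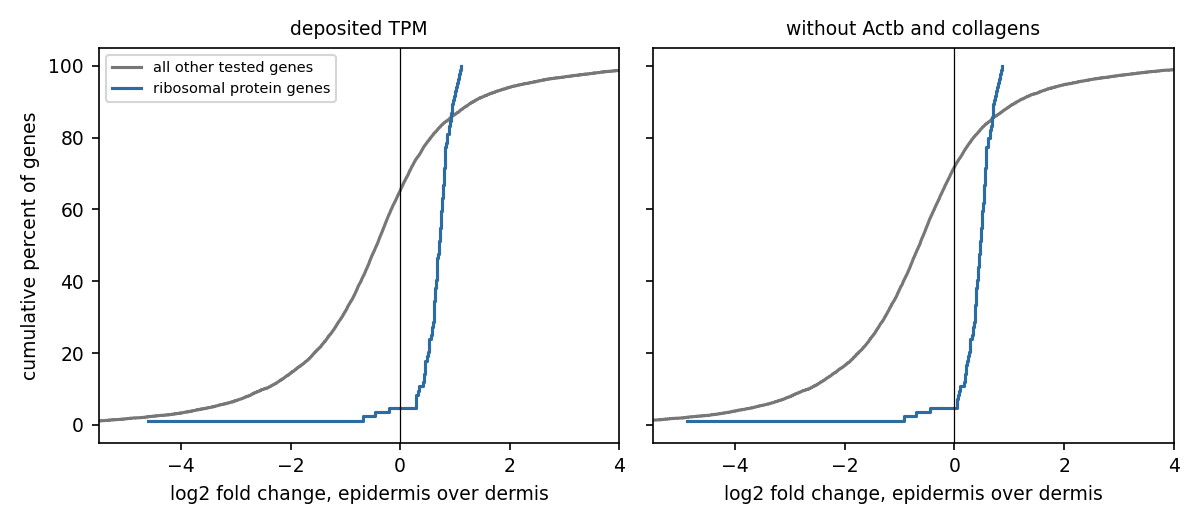
Cumulative percent of genes (vertical axis) by log2 fold change (horizontal axis, shown from -5.5 to 4) for members and for all other tested genes, on the deposited TPM and without Actb and collagens. The members form a steep step around their medians of 0.70 and 0.46, while the other genes spread widely around lower medians.

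Members of both subunits were among those called. Of 34 small-subunit members 16 were called higher, with a median of 0.72, and of 50 tested large-subunit members 31 were, with a median of 0.70. The shares called higher were 47.1% and 62.0%, beside 17.0% of all tested genes. On the reduced total the counts were 9 and 8, or 26.5% and 16.0%, beside 13.9%, so the large-subunit share lay near that of all tested genes. Leaving aside paralogs and related names, the other 77 tested members had log2 fold changes from 0.28 to 1.11 with a median of 0.72, and none was lower in epidermis by its mean. Across these 77 the fold change had a Pearson correlation of 0.16 with log2 transcript length, 0.011 with GC content, 0.012 with mean level and -0.069 with the share of signal in pseudogene rows. These are descriptions across genes measured in the same 6 libraries. Members with the TOP tract at their first annotated base had a median of 0.76 (9 of 12 called higher), and those without had 0.69 (38 of 72).

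The largest difference towards epidermis belonged to Rps24, a small-subunit protein needed to process ribosomal RNA and mutated in human Diamond-Blackfan anaemia. Its level was 280, 367 and 293 TPM in dermis and 556, 805 and 674 TPM in epidermis. The groups did not overlap, and even the lowest epidermis library exceeded dermis replicate 2. The log2 fold change was 1.11 ± 0.23 (SE, limma, adjusted p = 0.0057), and 0.86 on the reduced total (adjusted p = 0.012).

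Rps18, a protein of the small-subunit head, stood at 406, 710 and 595 TPM in dermis and 1114, 1205 and 1223 in epidermis. The epidermis libraries were close to each other and the dermis libraries spread, with replicate 1 lowest. Its log2 fold change was 1.09 ± 0.26 (limma, adjusted p = 0.010), and 0.84 on the reduced total (adjusted p = 0.018).

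Rps2 lies near the channel through which messenger RNA enters the ribosome. Its level was 363, 399 and 342 TPM in dermis and 687, 788 and 825 in epidermis. Libraries within each group lay close together and far from the other group. With a log2 fold change of 1.06 ± 0.20 (limma, adjusted p = 0.0035) it had the smallest adjusted p of the members called higher, and on the reduced total it was 0.81 (adjusted p = 0.0088). Of the other decoding-side proteins Rps3, at 0.64, was called higher and lost the call on the reduced total (adjusted p = 0.13) and without any library but dermis replicate 2 (up to 0.14). Rps15 and Rps23 had 0.61 and 0.74 (adjusted p = 0.067 and 0.072).

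The P stalk, which recruits and activates elongation factors on the large subunit, had 3 of 4 members called higher, beside 17.0% of all tested genes. On the reduced total 2 of 4 were, beside 13.9%. With each library left out in turn, between 1 and 3 were called on the deposited TPM. Rplp1 measured 485, 901 and 858 TPM in dermis and 1551, 1199 and 1767 TPM in epidermis, without overlap. Its log2 fold change was 1.04 ± 0.31 (limma, adjusted p = 0.025), and without dermis replicate 1, epidermis replicate 1 or epidermis replicate 3 it was not called (adjusted p up to 0.077). Rplp2, its partner in the stalk dimers, measured 339, 433 and 322 TPM in dermis and 606, 809 and 763 in epidermis, a log2 fold change of 0.99 ± 0.23 (adjusted p = 0.0082) that held without any one library. Rplp0, the base to which the dimers bind, ran from 412 to 763 TPM in dermis and from 915 to 1206 in epidermis. Its log2 fold change was 0.91 (adjusted p = 0.030), lost on leaving out dermis replicate 1 or 3 or epidermis replicate 1 or 3 (adjusted p up to 0.098), and 0.67 on the reduced total (adjusted p = 0.061).

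Rpl12, which sits at the foot of the stalk, was the stalk member not called on its own row. It was listed at only 8.38, 7.87 and 9.81 TPM in dermis and 12.1, 21.1 and 11.3 in epidermis, a log2 fold change of 0.66 (adjusted p = 0.074). For this gene 97.3% of the joint signal of gene and matching pseudogenes lay in 14 pseudogene rows. Those rows held 278, 332 and 304 TPM in dermis and 427, 636 and 552 in epidermis, again without overlap. With gene and pseudogene rows added, the log2 fold change was 0.80 ± 0.22 (adjusted p = 0.018), and 0.56 on the reduced total (adjusted p = 0.055).

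Rps12, a small-subunit protein, showed the same split more sharply. Its own row was listed at 0, 79.5 and 10.3 TPM in dermis and 78.2, 0 and 62.8 in epidermis, with a library at 0 in each group and no order between the groups. Its log2 fold change of 0.82 ± 2.07 was not called (adjusted p = 0.75). The 21 pseudogene rows assigned to it held 315, 467 and 476 TPM in dermis and 706, 852 and 909 in epidermis, 94.2% of the joint signal. Added together, they gave 0.98 ± 0.26 (limma, adjusted p = 0.016). Another such gene, Rps7, had 91.2% in 16 pseudogene rows, and its log2 fold change was 0.65 alone (adjusted p = 0.10) and 0.87 with them (adjusted p = 0.038). The deposited rows of genes with near-identical copies are therefore uncertain one by one.

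Pseudogene rows touched most of the family. At least 1 such row was assigned to 80 members, the median member had 10.97% of its joint signal there, and 24 members had over 50%. The rows summed to 8464 to 11250 TPM in dermis and 14633 to 18188 in epidermis. With them added, 61 members were called higher and 2 lower, beside 17.0% of the 15830 genes then tested. Members with more and with less than 50% in pseudogene rows had median log2 fold changes of 0.73 and 0.70 on their own rows.

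Rpl5 and Rpl11 carry 5S ribosomal RNA into the large subunit and, outside the ribosome, bind the p53 regulator Mdm2. Rpl5 was at 96.0, 127 and 91.3 TPM in dermis and 228, 178 and 147 in epidermis, and Rpl11 at 91.5, 85.2 and 59.9 in dermis and 107, 171 and 121 in epidermis. Neither overlapped between the tissues. Both were called higher on the deposited TPM, with log2 fold changes of 0.80 (adjusted p = 0.026) and 0.74 (adjusted p = 0.047), and neither on the reduced total (adjusted p = 0.071 and 0.14). The call of Rpl11 was lost without any one library (adjusted p up to 0.16) and that of Rpl5 without dermis replicate 1 or 3 or epidermis replicate 1 (up to 0.10).

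Among 9 proteins that line the tunnel through which the nascent chain leaves, or surround its mouth, 5 were called higher on the deposited TPM and 1, Rpl22, on the reduced total. This was 55.6% beside 17.0% of all tested genes, and 11.1% beside 13.9% on the reduced total. Rpl22, Rpl17, Rpl23a and Rpl4 had log2 fold changes of 1.02, 0.93, 0.83 and 0.74 on the deposited TPM. Each of these 4 calls was lost without some library (adjusted p up to 0.11). Of 18 members whose human counterparts are mutated in Diamond-Blackfan anaemia, a failure of red cell production, 9 were called higher, beside 17.0% of all tested genes. Without Actb and collagens 3 were, and this 16.7% lay near the 13.9% of all tested genes. Besides Rps24 these included Rps26, Rps10 and Rps28, at 0.98, 0.94 and 0.82, of which Rps28 lost its call on the reduced total (adjusted p = 0.063) and without 4 of the 6 libraries (up to 0.096).

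Of 5 members whose mouse mutants have altered skin or coat colour, 3 were called higher, and 2 of them on the reduced total. This was 60.0% beside 17.0% of all tested genes, and 40.0% beside 13.9% on the reduced total. Rps20, a small-subunit head protein, stood at 111, 127 and 90.8 TPM in dermis and 178, 324 and 211 in epidermis. Its groups did not overlap and the epidermis values spread widely, with a log2 fold change of 1.08 ± 0.28 (limma, adjusted p = 0.013) that was not called without dermis replicate 3 (adjusted p = 0.058). Rps6, the small-subunit protein phosphorylated by S6 kinases downstream of mTORC1, stood at 161, 170 and 131 TPM in dermis and 242, 348 and 306 in epidermis, a log2 fold change of 0.95 (adjusted p = 0.0095).

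Rps19, needed for small-subunit assembly, measured 487, 835 and 666 TPM in dermis and 1077, 1073 and 1223 TPM in epidermis. Its log2 fold change was 0.79 (adjusted p = 0.033), and 0.55 on the reduced total (adjusted p = 0.078). Only without dermis replicate 2 was it still called (adjusted p up to 0.11 otherwise). Rpl24, mutated in the Belly spot and tail mouse, overlapped between the tissues at 219, 223 and 179 TPM in dermis and 198, 336 and 271 in epidermis and was not called (log2 fold change 0.35, adjusted p = 0.27). The fifth was Rps7, described above with its pseudogenes.

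Of the 8 most abundant members, Rplp1 was also among the 5 with the highest fold changes. Rps25, a small-subunit protein used by some viral and cellular internal ribosome entry sites, was at 3209, 5303 and 4254 TPM in dermis and 7109, 5980 and 7752 in epidermis. The groups did not overlap, yet the log2 fold change of 0.73 ± 0.29 was not called (limma, adjusted p = 0.068). Rps14 and Rps27, also among the 8 most abundant, had log2 fold changes of 0.50 and 0.32 that were not called (adjusted p = 0.19 and 0.43). Rpl13a and Rpl41, the latter the smallest protein of the ribosome, were called higher at 0.90 and 0.75 (adjusted p = 0.016 and 0.019). Rpl13a was still called on the reduced total at 0.65 (adjusted p = 0.041) and Rpl41 was not, at 0.51 (adjusted p = 0.057). On the deposited TPM both were without a call when dermis replicate 1 or 3 was left out, and Rpl41 also without epidermis replicate 1 or 3 (adjusted p up to 0.077). The smallest difference outside the paralogs was that of Rpl10, a protein that joins the large subunit late in its assembly. It measured 122, 108 and 101 TPM in dermis and 136, 131 and 135 in epidermis, 0.28 ± 0.18 on the log2 scale (adjusted p = 0.22), although its groups did not overlap.

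Paralogs and related names behaved unevenly. Of 9 such members 7 were tested, with 2 called higher, 2 lower and 3 not called on the deposited TPM. This was 28.6% higher beside 17.0% of all tested genes, and 28.6% lower beside 39.3%. The coding sequences are printed for the 2 pairs in which the copy was lower in epidermis, since reads of close copies may be shared between rows. They come from GENCODE transcripts on mm10, 5′ to 3′, with the bases that differ within a pair in capitals. Rpl39 lies at chrX:37082520-37085402 on the minus strand and Rpl39l at chr16:10170226-10174911 on the plus strand.
Rpl39: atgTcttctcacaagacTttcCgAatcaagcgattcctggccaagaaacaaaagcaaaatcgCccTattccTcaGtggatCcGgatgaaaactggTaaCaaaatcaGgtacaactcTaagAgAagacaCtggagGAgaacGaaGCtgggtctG
Rpl39l: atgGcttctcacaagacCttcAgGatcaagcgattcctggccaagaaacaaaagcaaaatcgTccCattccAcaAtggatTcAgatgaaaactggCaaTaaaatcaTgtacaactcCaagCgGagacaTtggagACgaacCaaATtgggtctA
They differ at 23 of 153 bases (85.0% identity), and the longest stretch without a difference is 38 bases. Rps27 lies at chr3:90212522-90213651 on the minus strand and Rps27l at chr9:66946086-66949516 on the plus strand.
Rps27: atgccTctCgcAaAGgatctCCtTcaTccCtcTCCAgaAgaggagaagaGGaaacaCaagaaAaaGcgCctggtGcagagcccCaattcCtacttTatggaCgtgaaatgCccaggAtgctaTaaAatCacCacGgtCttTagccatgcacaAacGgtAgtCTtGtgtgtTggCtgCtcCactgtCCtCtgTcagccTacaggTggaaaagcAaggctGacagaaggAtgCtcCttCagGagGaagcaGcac
Rps27l: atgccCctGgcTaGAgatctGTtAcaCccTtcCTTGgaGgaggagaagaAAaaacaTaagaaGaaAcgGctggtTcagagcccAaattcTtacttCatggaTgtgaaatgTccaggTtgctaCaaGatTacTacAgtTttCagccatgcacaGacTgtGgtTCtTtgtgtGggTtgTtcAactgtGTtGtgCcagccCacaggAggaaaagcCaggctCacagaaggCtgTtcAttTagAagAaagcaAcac
This pair differs at 60 of 252 bases (76.2% identity), with at most 11 bases in a row alike.

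Rpl39l, a copy of the exit tunnel protein Rpl39 known for its expression in testis, was the member that differed most. It stood at 20.3, 26.9 and 35.4 TPM in dermis and 0.35, 0.14 and 0 in epidermis. All dermis libraries were well above all epidermis libraries, of which replicate 3 was listed at 0. The log2 fold change was -4.59 ± 0.26 (limma, adjusted p = 2.0e-05) and -4.88 on the reduced total. Rpl39l passed the filter through the dermis libraries alone, so its call could hardly have gone the other way. Rpl39 itself was at 76.6, 71.8 and 43.2 TPM in dermis and 81.2, 132 and 82.7 in epidermis, 0.63 on the log2 scale and not called (adjusted p = 0.12).

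Rps27l, a copy of Rps27 that is induced by p53, had 183, 240 and 249 TPM in dermis and 146, 109 and 167 in epidermis. Its highest epidermis library lay below its lowest dermis library. The log2 fold change was -0.67 ± 0.24 (limma, adjusted p = 0.046) and -0.92 on the reduced total (adjusted p = 0.011). On the deposited TPM the call held only without epidermis replicate 3 (adjusted p up to 0.15 otherwise), and under median-of-ratios scaling the value was -0.20 (adjusted p = 0.37). Rps27 was at 627, 1191 and 1054 TPM in dermis and 1285, 851 and 1409 in epidermis, with overlap.

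Rpl22l1, the copy of Rpl22, was at 67.3, 80.7 and 67.9 TPM in dermis and 104, 165 and 111 in epidermis and was called higher at 0.78 (adjusted p = 0.025), but not on the reduced total (0.54, adjusted p = 0.073). Rpl36al, the copy of Rpl36a, was at 192, 247 and 187 TPM in dermis and 312, 366 and 403 in epidermis and was called higher at 0.79 (adjusted p = 0.016), and at 0.55 on the reduced total (adjusted p = 0.0496). Both copies lost the call without dermis replicate 1 or dermis replicate 3 (adjusted p up to 0.086). Rps27rt, a retrotransposed copy of Rps27, overlapped at 133, 65.3 and 50.5 TPM in dermis and 74.3, 175 and 101 in epidermis and was not called (0.52, adjusted p = 0.35). Rps19bp1, which is named for binding Rps19 and is not a ribosomal protein, and Rpl7l1, a relative of Rpl7, had -0.46 and -0.21 (adjusted p = 0.19 and 0.53). Under median-of-ratios scaling they stood at 0.0054 and 0.25. Below the filter were Rpl3l, a muscle copy of Rpl3 at no more than 0.57 TPM in any library, and Rpl10l, a testis copy of Rpl10 listed at 0 in all 6.

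**Figure D4:**
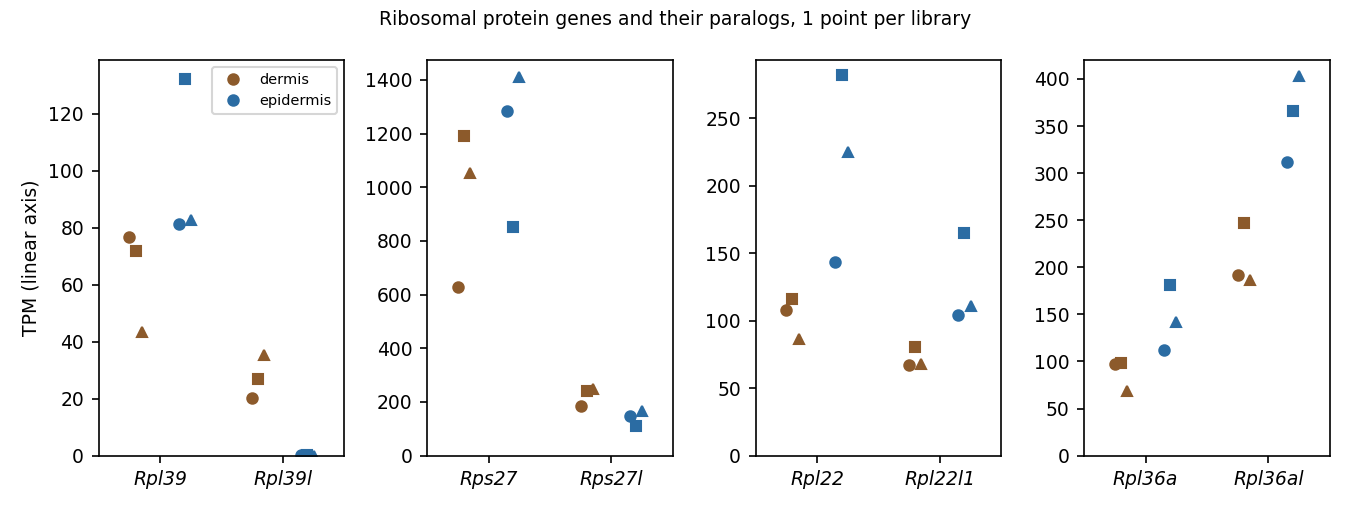
TPM of 4 ribosomal protein genes beside their copies in each library (vertical axes, linear from 0, separate scales per panel; 1 point per library). The copies Rpl39l and Rps27l are higher in all 3 dermis libraries. Rpl22l1 and Rpl36al, like Rpl22, Rpl36a and Rpl39, are higher in all 3 epidermis libraries, while Rps27 overlaps between the tissues.

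To ask which members left the common pattern, each library was rescaled so that the typical member stayed level. By construction the median member then sat at 0.0010 on the log2 scale, while the median of all tested genes was -1.03. No member was called higher, beside 9.28% of 16128 genes, and 4 were called lower, beside 59.7% (limma). The lower ones were Rpl39l at -4.97 (adjusted p = 4.4e-06), Rps27l at -1.38 (adjusted p = 0.0031), Rps19bp1 at -1.16 (adjusted p = 0.011) and Rpl7l1 at -0.90 (adjusted p = 0.022). Rps19bp1 and Rpl7l1 thus departed from the typical member but lay near the median of all tested genes. Rps27l and Rps19bp1 kept the call without any one library, while Rpl7l1 lost it without dermis replicate 2 or dermis replicate 3 (adjusted p up to 0.080). Rpl39l entered this test, too, through the dermis libraries alone.

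Proteins of the ribosome whose genes fall outside the naming rule include Fau and Rack1. Fau, which encodes a ubiquitin-like protein fused to the small-subunit protein eS30, was at 107, 102 and 58.0 TPM in dermis and 184, 239 and 298 in epidermis. Its groups did not overlap, and its log2 fold change of 1.45 ± 0.31 (limma, adjusted p = 0.0061) was larger than the value of every member. Rack1, a scaffold on the small subunit, had 0.54 and was not called (adjusted p = 0.073).

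Other genes of protein synthesis were described from lists, as counts without a test of the list. Of 18 tested TOP messenger RNAs that encode no ribosomal protein, 6 were called higher and 2 lower on the deposited TPM, with a median of 0.42, and on the reduced total 5 and 2. This was 33.3% higher beside 17.0% of all tested genes, and 27.8% beside 13.9% on the reduced total. Higher were Btf3, a factor that binds nascent chains, at 1.33, Tpt1 at 1.24, and the elongation factor subunits Eef1b2 and Eef1g at 1.14 and 1.06. Lower were the histone chaperone Nap1l1 at -1.03 and the RNA-binding protein Hnrnpa1 at -1.16. All 6 of these named calls held without any one library.

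Of 34 other translation factors 9 were called higher and 1 lower, with a median of 0.37, and 7 and 2 on the reduced total. Called higher were 26.5% of the list beside 17.0% of all tested genes, and 20.6% beside 13.9% on the reduced total. Called lower were 2.94% beside 39.3%. Eif6, which keeps the subunits apart until the large one is mature, was at 1.52. Eif5a, which helps the ribosome through difficult peptide bonds, was at 1.43. The helicase cofactor Eif4h and the elongation factor 2 kinase Eef2k stood at 1.25 and 1.11.

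Ribosome assembly factors build the subunits in the nucleolus and leave before translation. Of 62 tested, 5 were called higher and 1 lower, with a median of 0.20, and on the reduced total 3 and 1 with a median of -0.01. Called higher were 8.06% of the list beside 17.0% of all tested genes, and called lower 1.61% beside 39.3%. Nhp2, a core protein of the H/ACA particles that guide pseudouridylation, was higher at 1.58, Rrp12 at 1.24 and the RNA polymerase subunit Polr1d at 0.83, all 3 without any one library too. Ddx27, at 0.63, lost its call on the reduced total (adjusted p = 0.10) and without 5 of the 6 libraries (adjusted p up to 0.098). Tcof1, a factor of ribosomal RNA transcription, at -0.84, also lost its call without 5 of the 6 libraries (adjusted p up to 0.12). These assembly counts moved with the scaling, with 31 called higher under median-of-ratios scaling and 32 under quantile normalization.

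Of 11 tested regulators in the mTORC1 and Myc pathways 4 were called higher on the deposited TPM and none lower, and on the reduced total 3 and 3. The share called higher was 36.4% beside 17.0% of all tested genes, and 27.3% beside 13.9% on the reduced total. Rps6kb2, a kinase of Rps6, was at 1.76, the Myc partner Max at 1.21 and the translation repressor Eif4ebp2 at 0.93. Myc itself was at 38.6, 73.3 and 31.4 TPM in dermis and 138, 70.3 and 104 in epidermis. Dermis replicate 2 overlapped epidermis replicate 2, and the call at 1.15 (limma, adjusted p = 0.035) was lost on the reduced total (adjusted p = 0.064) and without 4 of the 6 libraries (up to 0.12).

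The proteasome and the mitochondrial ribosome were set beside these lists. Of 31 proteasome subunits 5 were called higher and none lower on the deposited TPM, with a median of 0.24, and on the reduced total 1 and 3. The 16.1% called higher lay near the 17.0% of all tested genes. Psmc5, a subunit of its regulatory particle, led at 1.09. Genes named for the mitochondrial ribosome were taken by symbol alone (Mrpl or Mrps and a digit), so a role in it was not checked for each. Of these 78, 3 were called higher and 13 lower on the deposited TPM, with a median of -0.27, and on the reduced total 1 and 24. Called lower were thus 16.7% of the list beside 39.3% of all tested genes, and 30.8% beside 46.9% on the reduced total. Called higher were 3.85% beside 17.0%. Mrps36, Mrpl48 and Mrps11 were lower at -1.17, -0.92 and -1.31, and Mrpl14 was called higher, from 57.6 to 105 TPM in dermis and from 173 to 206 in epidermis. The direction of that list turned with the scaling, since median-of-ratios scaling gave a median of 0.18 with 16 higher and 6 lower.

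**Figure D5:**
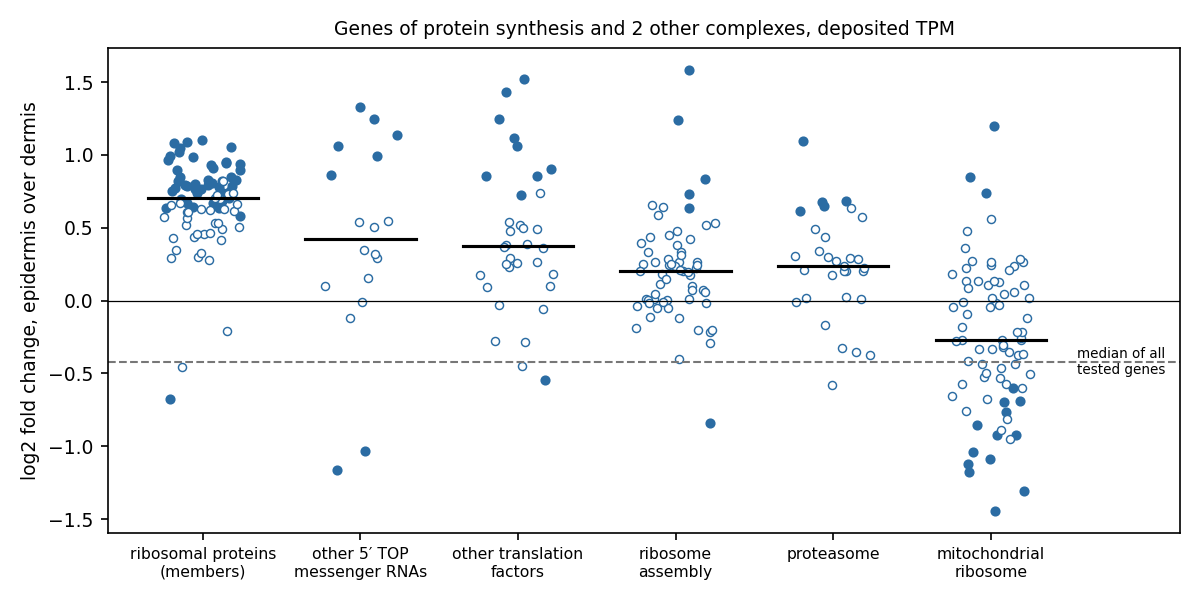
Log2 fold change (vertical axis, epidermis over dermis, deposited TPM) of single genes in 6 lists, filled where the adjusted p is under 0.05, with a black line at each list's median and a dashed line at the median of all tested genes, -0.42; points below -2 (Rpl39l) are not drawn. The medians run from 0.70 for ribosomal protein genes through 0.42 for other TOP messenger RNAs and 0.37 for translation factors to -0.27 for mitochondrial ribosomal proteins.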

How the data were processed

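SMART-seq2 libraries of mouse wound dermis and wound epidermis (3 each) were compared. The authors deposited TPM per gene and library; Bowtie 1.0.0, RSEM 1.2.31 and the builds mm10 and Rnor_6.0 are named per the submitters' processing notes. In the sources used here, their settings and the gene annotation are not given. Per the labels' protocols, RNA input and read length differed among libraries, without saying which had which. Depth is unknown.

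Symbols came from GENCODE (49289 of 49548 rows). Rows reaching 1 TPM in 3 or more libraries entered limma 3.58.1 as log2(TPM + 1) (R 4.3.3, mean-variance trend, Benjamini-Hochberg, threshold 0.05), on the deposited TPM and after removing Actb and collagen rows. The test was checked on simulated data. Pseudogene rows were assigned with blastn 2.17.0 (at least 90% identity over at least 100 bases). Read sharing between members and their copies cannot be undone in TPM.

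The members, gene lists and tests were chosen with earlier results of these data known, and the mitochondrial list, the pseudogene sums and the scaling to the typical member after the data had been seen. Named members were the 8 most abundant, the 5 highest and 5 lowest fold changes, those under the filter, and small functional lists; other lists gave their up to 4 smallest adjusted p. Other members are named where a count of 5 or fewer called for it. Alternatives were other pseudocounts, filters, totals and scalings, a narrower naming rule, a block for replicate number, and each library left out. Some genes that these rules name are not reported here.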

Additional observations from a re-analysis of the deposited data

How the results depend on the processing

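On the deposited TPM, 47 members were called higher and 2 lower. No filter gave 27 and 1. Median-of-ratios scaling gave 78 and 1 (median 1.17, ratio of sums 2.26), where the all-gene median moved to -0.01 and the higher share of all calls from 30.2% to 48.3%. Quantile normalization gave 33 higher, an all-gene median of 0.08 and a share of 52.8%. The replicate block gave 32 and 1, removing Actb alone 31 higher, and scaling to the typical member 0 and 4 (median 0.0010). Each library left out gave 10 to 50 higher and 0 to 2 lower. On the reduced total, 17 were higher and 2 lower. No filter gave 7 higher, median-of-ratios 78 and 1 (median 1.17), quantile 29, the block 11, and removing keratins too 31. Each library left out gave 1 to 18 higher and 1 to 3 lower. Scaled to the typical member, which shifts all genes alike, 42 of 84 members were positive against 80 on the deposited TPM, with Rpl10, Rps27 and Rpl24, not called before, at -0.43, -0.39 and -0.36. Among the called genes chosen for naming by the rules above, the member Rps3 changed sign to -0.068. Ddx27, Psmb5, Psmd8 and Psmb7 of the other lists changed sign to -0.043, -0.026, -0.021 and -0.088. Further called members also turned negative, among them Rpl6, Rpl7, Rpl18 and Rpl29 at -0.077, -0.13, -0.075 and -0.056. The other pseudocounts, the 5 TPM filter and the narrower rule kept the counts within 1.5 times. The causes of these shifts were not tested, beyond that fewer libraries or more genes enter.

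Same-numbered deviations correlated across genes at -0.14, 0.086 and 0.19. Dermis replicates 2 and 3 correlated best with the epidermis replicate of the same number, and dermis replicate 1 with epidermis replicate 2 (0.12). These correlations are too weak to tell whether replicate numbers pair libraries. Unknown depth leaves the precision of low rows unknown. Input amount and read length could not be assigned to libraries.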
